A study of Betula luminifera with 2 samples.

Results

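The items described are the 72 microRNA (miRNA) candidates of 21 nt in Betula luminifera, a birch grown for timber. They are the entries of the predicted class of the small RNA table whose mature sequence is 21 nt long, with identical sequences merged and their reads summed. Reads of that class mapped to genome contigs that may form hairpins, and not to the hairpins of the selected species in miRBase, the public miRNA registry. They make up 72 of the 326 predicted candidates and 72 of all 505 listed sequences. The material was 1 clone, G49#, as seedlings of 2 months from tissue culture, and equal amounts of RNA from root, stem and leaf were combined before library preparation. The RNA gave 1 library of small RNAs and 1 degradome library, a collection of the 5′ ends of cut polyadenylated transcripts, with 0 replicates. No organ, genotype or treatment could therefore be compared, and sequences or hairpins of 1 library are not replicates.

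A plant miRNA is cut from a hairpin transcript by a Dicer-like enzyme, which releases a short duplex from the stem of the hairpin. Each strand of that duplex ends in a short 3′ overhang, and 1 strand is kept by an Argonaute protein, a choice in which the first base takes part, while the other strand is usually lost. The kept strand pairs with a transcript, which is cut opposite the middle of the miRNA. Small RNAs of 24 nt in plants are mostly made by another Dicer-like enzyme and act in the silencing of repeats. The deposited reads per sequence, the position of the listed arms on their hairpins and the degradome positions were described with these steps in view.

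The 10 members with the most reads are shown first, because they hold most of the reads of the class. Each is written 5′ to 3′ with T for U, and the capitals mark the seed, bases 2 to 8.
PC-5p-407_1164: tCAAAAACttcttttgcctct
PC-5p-3808_166: tATAACAAagtctgaatggtt
PC-3p-1258_412: cTGACTGAggcaaaagaagtt
PC-5p-3828_169: tCTTTTGCctctgtcaacata
PC-5p-6447_102: aATGGGCTattttgggaagaa
PC-5p-19668_31: cGGATCAGacaaatcagcgtt
PC-3p-14451_46: aACAACTGaagaaaactgtgt
PC-5p-14095_46: cATCCCAGgacacatgaacag
PC-5p-26602_23: tCCCATGAcacatgaacagtg
PC-5p-46600_11: aGCCCAGGacacatgaacagt

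Seeds were almost all different: the 72 members carried 71 distinct seeds. The seed shared within the class, CAAAAAC, belonged to PC-5p-407_1164 and to PC-5p-361628_1, a member with 2 reads. PC-3p-42983_12 shared the seed TGAAGTG with the miR395 entries of the table, and PC-3p-101285_4 shared TTCAATA with mtr-miR396b-3p. Of the members, 30 were named for the 5′ arm of their hairpin and 42 for the 3′ arm.
PC-5p-361628_1: tCAAAAACttctcttgcctct
PC-3p-42983_12: cTGAAGTGtttgtgggaactt
PC-3p-101285_4: tTTCAATAaccggctcccctc

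The members held 4281.5 reads, which was 49.5% of the 8656.5 reads of all candidates (48.4 to 50.5%) and 0.705% of the 607592 listed reads (0.684 to 0.726%). Intervals here and below are exact (Clopper-Pearson) binomial intervals at 95%; they cover counting error only, since amplified reads that carry no molecular identifier are not independent molecules. Some values end in 0.5, also for members with a single entry, such as PC-5p-407_1164. How these values arose was not tested. Reads per member ran from 0.5 to 1259.5 with a median of 12.5, and 28 members had fewer than 10 reads. The 212 candidates of 24 nt had a median of 9.25 reads and a highest value of 283.5. The typical member was thus about as rare as a 24-nt candidate, and the large share of the class came from a few sequences.

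PC-5p-407_1164 had 1259.5 reads, 29.4% of the reads of the class. PC-5p-3808_166 followed with 581 reads and PC-3p-1258_412 with 531.5 reads. These 3 held 55.4% of the member reads (53.9 to 56.9%). PC-5p-3828_169 had 304 reads, PC-5p-6447_102 had 226, PC-5p-19668_31 had 143 and PC-3p-14451_46 had 104, which makes 7 members with at least 100 reads. PC-5p-14095_46 had 94 reads, PC-5p-26602_23 had 68.5 and PC-5p-46600_11 had 56.5. With them the first 10 members held 78.7% of the reads (77.4 to 79.9%), as the plot of reads by rank shows.

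**Figure D1:**
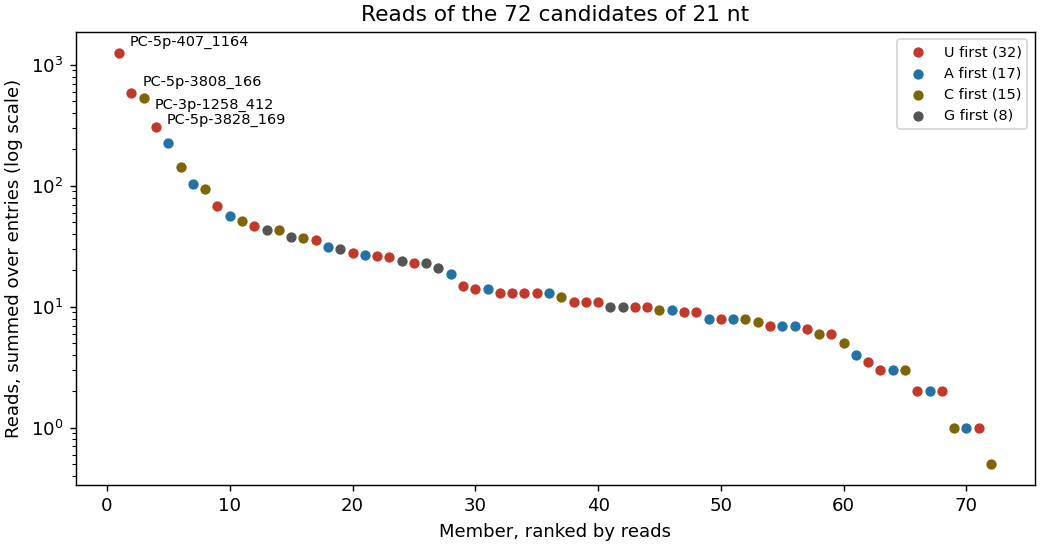
Reads of each of the 72 candidates of 21 nt (vertical axis, log scale, reads summed over the entries of a sequence) by rank (horizontal axis), coloured by first base. The values fall from 1259.5 to 0.5. At least 10 reads are found for 44 of the 72 members, among them all 8 that begin with G.

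The length limit can be read from the neighbouring lengths. No candidate of 20 nt was listed. There were 18 candidates of 22 nt with 538 reads in all and a median of 12.5, of which 13 began with U. The 14 candidates of 23 nt had 240 reads and a median of 2.5, and 8 began with U.

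U was the most frequent first base of the members. It opened 32 of 72 sequences (44.4%, 32.7 to 56.6%), against 17 for A (23.6%, 14.4 to 35.1%), 15 for C (20.8%) and 8 for G (11.1%). Among the 212 candidates of 24 nt, U opened 40 (18.9%, 13.8 to 24.8%) and A opened 154 (72.6%, 66.1 to 78.5%). The members exceeded them in U by 25.6 points (Fisher's exact test across sequences, two-sided, p = 3.6e-05, Benjamini-Hochberg adjusted p = 0.00014 over 4 tests). Of the 82 sequences of 21 nt that matched miRBase, 47 began with U (57.3%, 45.9 to 68.2%). The members lay -12.9 points from these, a difference that did not pass the test (Fisher's exact p = 0.15, adjusted p = 0.23), which does not show that the classes have the same share. The members also differed in the order of the rarer bases: C opened 20.8% of them, 11% of the matched sequences and 3.3% of the 24-nt candidates, values given with no test.

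**Figure D2:**
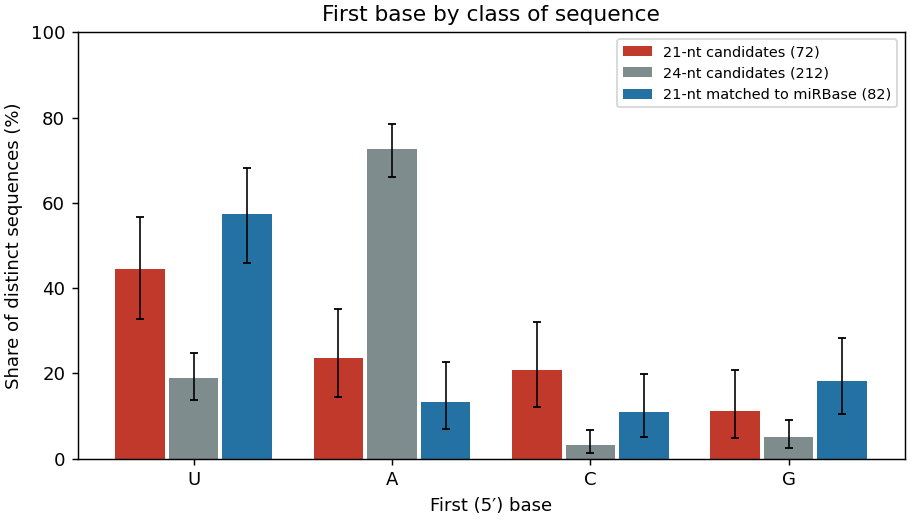
Share of distinct sequences (vertical axis, percent) by first base (horizontal axis) for the 72 candidates of 21 nt, the 212 candidates of 24 nt and the 82 matched sequences of 21 nt, with exact 95% binomial intervals as error bars. U opens 44.4%, 18.9% and 57.3% of the classes, and A opens 23.6%, 72.6% and 13.4%.

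By reads, U opened 60.5% of the class (59 to 62%), C 22.2%, A 12.6% and G 4.65%. PC-5p-407_1164 alone set part of this share, since U opened 44% of the reads without it. C stood next because PC-3p-1258_412 and PC-5p-19668_31 begin with it. Of the 44 members with at least 10 reads, 21 began with U, 8 with A, 7 with C and 8 with G. All 8 members beginning with G were thus among them, PC-3p-109598_4 and PC-3p-191216_2 with exactly 10 reads.

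A single set of related hairpins held 3 of the 4 most-read members. PC-5p-407_1164, PC-3p-1258_412, PC-5p-3828_169 and PC-5p-34521_16 share a stretch of at least 15 nt with each other directly or through another of them, on either strand. They held 2126.5 reads, 49.7% of the class. PC-5p-407_1164 was listed on contig_187275, plus strand, positions 1105 to 1204. The others were listed on contig_325544, plus strand, positions 366 to 467, and on its minus strand, listed positions 310 to 413. The plus-strand hairpins of both contigs were identical at 79 of 96 aligned bases (82.3%, 73.2 to 89.3%). With PC-5p-361628_1 and PC-3p-83894_5 from the minus strand of contig_187275, the hairpins of this set gave 6 members and 49.9% of the member reads (48.4 to 51.4%). Which of these hairpins gave which reads was not tested. No gene annotation of the contigs was used here.

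The hairpins of this set are shown 5′ to 3′ as contig sequence, with the listed arms in capitals, because the 6 members above lie on their stems. For the contigs, no genome build is given in the sources used here.
contig_187275 plus: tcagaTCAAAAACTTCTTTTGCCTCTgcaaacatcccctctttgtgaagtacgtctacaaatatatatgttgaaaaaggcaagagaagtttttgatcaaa
contig_187275 minus: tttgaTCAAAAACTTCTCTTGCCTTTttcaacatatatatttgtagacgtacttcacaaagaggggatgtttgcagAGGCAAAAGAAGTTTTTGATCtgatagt
contig_325544 plus: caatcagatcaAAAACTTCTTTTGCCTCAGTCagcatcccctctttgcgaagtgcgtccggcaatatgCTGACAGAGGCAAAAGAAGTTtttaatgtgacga
contig_325544 minus: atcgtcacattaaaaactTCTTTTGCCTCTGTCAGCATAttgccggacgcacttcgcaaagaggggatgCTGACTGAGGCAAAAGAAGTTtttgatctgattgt

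Substitutions are written as the contig base, the position counted from 1 at the 5′ end of the listed sequence, and the base of the listed sequence. PC-3p-1258_412 was identical to the minus-strand hairpin and had A6T on the plus strand. PC-5p-3828_169 had G17A on the minus strand, where it was listed. PC-5p-34521_16 (aAAACTTCttttgcctctgtc, 31.5 reads) was listed on the plus strand with A18T, yet it was identical to bases 13 to 33 of the minus-strand hairpin. Both strands of contig_325544 were thus listed as hairpins, while PC-3p-1258_412 and PC-5p-34521_16 were identical to the minus strand alone.

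The arm reads listed on this contig differed between its strands. On the minus strand PC-5p-3828_169 had 304 reads and PC-3p-1258_412 had 293, a ratio of 1.04, the most even of all hairpins with both arms of 21 nt. On the plus strand PC-5p-34521_16 had 31.5 reads and PC-3p-1258_412 had 238.5, a ratio of 7.57. The reads of PC-3p-1258_412 were split between the strands in the table, so these ratios are not separate measurements. Neither plus-strand arm was identical to that strand, while both were identical to the minus strand. The plus-strand ratio therefore depends on where the arms were listed. Contig_187275, plus strand, listed no other arm beside PC-5p-407_1164.

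The group next in reads held 8 members that share the stretch around CCCAGG or its reverse complement, with 274.5 reads or 6.41% of the class. PC-5p-14095_46 (94 reads) and PC-5p-46600_11 (56.5 reads), shown above, led it. PC-3p-32727_17 had 43 reads, PC-3p-40134_13 had 36 and PC-5p-111483_4 had 27, and PC-3p-108232_4, PC-3p-148627_3 and PC-5p-221145_3 had 9.5, 6.5 and 2. This group overlapped the 24-nt class. PC-5p-14095_46 lay whole within PC-5p-16296_40, a candidate of 24 nt with 112.5 reads. PC-5p-46600_11 and PC-5p-221145_3 lay whole within PC-5p-2111_271, the most-read 24-nt candidate with 283.5 reads. The sequences are given together for that reason.
PC-5p-14095_46: cATCCCAGgacacatgaacag
PC-5p-16296_40: caacatcccaggacacatgaacag
PC-5p-46600_11: aGCCCAGGacacatgaacagt
PC-5p-221145_3: aTCAGCCCaggacacatgaac
PC-5p-2111_271: atcagcccaggacacatgaacagt
PC-5p-111483_4: aACATCCCaggatacatgaac
PC-3p-32727_17: cCTGGGATgttgcactgtagc
PC-3p-40134_13: tGTATCCTgggatgttgcact

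In all, 24 members fell into 7 groups of related sequences. The third group held PC-5p-142860_3, PC-3p-94549_4 and PC-3p-101285_4 with 47 reads together. The next held PC-3p-38884_13, PC-3p-66238_7 and PC-3p-211750_2 with 35 reads, and the fifth held PC-3p-51909_9 and PC-5p-159527_3 with 30. The remaining groups had 21 and 12 reads. A total of 12 members, with 20.2% of the member reads (19 to 21.4%), shared at least 15 nt with a 24-nt candidate. Related loci are not independent of each other.

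Most of the hairpins listed a small RNA on both arms. The 72 members lay on 68 hairpins, of which 45 listed both arms and 23 a single arm. Arms were counted here and in the test below from candidate entries alone. Contig_229199 and contig_219575 thus count as single-arm, although matched miRNAs were also listed there, mtr-miR396a-5p with 794.5 reads and mdm-miR167b with 40.5. By sequence, 53 of 72 members (73.6%, 61.9 to 83.3%) had the other arm listed, against 157 of 212 candidates of 24 nt (74.1%, 67.6 to 79.8%), a difference of -0.445 points (two-sided Fisher's exact p = 1, adjusted p = 1). Of the 45 hairpins, 19 listed 21 nt on both arms, 19 paired a 21-nt member with a 24-nt arm, and 7 had another length on the other arm. A single hairpin therefore often carried listed small RNAs of both length classes. Such a hairpin counts on both sides of the test above. A hairpin with 21 nt on both arms counts for both of its members. The units of that test are therefore not independent, and its p does not show that the classes have the same share.

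Among the 19 hairpins with 21 nt on both arms, the more abundant arm had between 1.04 and 26 times the reads of the other, with a median of 3.46. The 5′ arm was higher in 10 of them and the 3′ arm in 9. These counts use candidate entries alone. On contig_158801 and contig_158802 PC-5p-21027_30 had 18.5 and 19.5 reads on the 5′ arm, and PC-3p-195177_2 had 2.5 on each. The matched mtr-miR398b had 694.5 reads on the 3′ arm of each, so with matched entries the 3′ arm was higher there. The ratio of 26 was that of contig_221044, plus strand, where PC-3p-14451_46 had 104 reads and PC-5p-264907_2 had 4. Where the other arm was 24 nt long, the member had more reads in 11 hairpins and fewer in 8. PC-5p-14095_46, for example, had 94 reads on contig_255359 and its 24-nt partner PC-3p-91154_4 had 4.5. Over all 45 hairpins the median ratio was 4.67. The 33 contig hairpins that listed both arms of a miRBase match had a median ratio of 16.2, with a range of 1.91 to 85581.0. Some of these hairpins list arms that do not pair with each other. Without them, a setting added after the values were seen, the median was 3.46 over 17 hairpins with 21 nt on both arms, 4.5 over 37 member hairpins and 19.1 over 30 matched hairpins. The hairpins of the matched class also held more reads, with a median of 358 per hairpin (10 to 513492) against 21 (5.5 to 613), and their part in the difference of ratios was not tested.

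**Figure D3:**
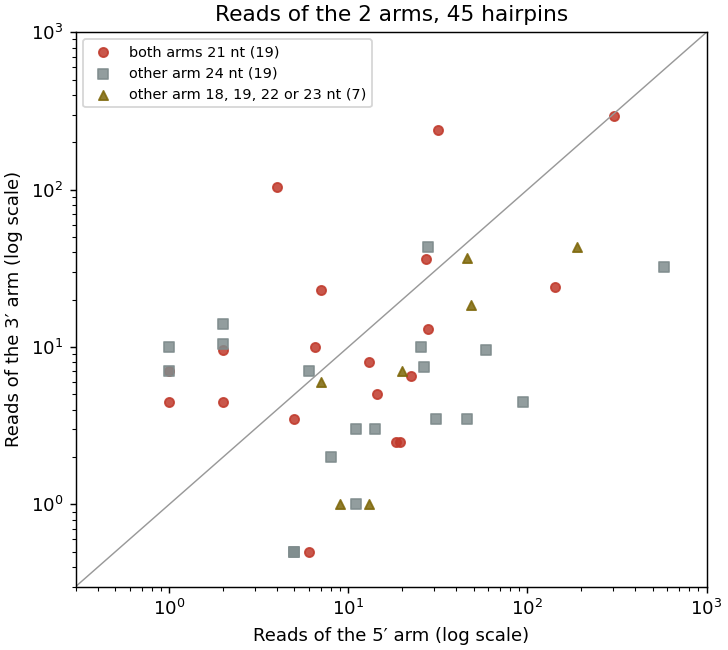
Reads of the 5′ arm (horizontal axis) and of the 3′ arm (vertical axis), both on log scales, for the 45 hairpins of 21-nt candidates that list both arms. Reads are those of candidate entries alone. The line marks equal reads, and points lie on both sides of it for both arms of 21 nt (19 hairpins) and for a 24-nt other arm (19 hairpins).

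The listed arms seldom formed a duplex with 2-nt 3′ overhangs. For each hairpin the deposited fold was used to count the 3′ bases by which each arm ran past the 5′ end of the other, negative where it stopped short. An overhang of 2 nt on both arms was found in 2 of the 45 member hairpins (4.44%, 0.543 to 15.1%), and overhangs of 1 to 3 nt in 6 (13.3%, 5.05 to 26.8%). In 19 of the 45 the other arm had 24 nt, and in 7 it had another length. Arms of unequal length tend to have unequal overhangs, such as 1 and 4 nt on contig_241396. A value of 2 nt at both ends was thus unlikely for them in advance. Of the 28 hairpins with at least 12 pairs between the arms, 14 had both overhangs above 0, 12 had both below 0, and 2 had an overhang of 0 or mixed signs. A further 9 had 1 to 11 pairs, and in 8 no base of one arm paired with the other.

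The 33 matched hairpins, measured the same way, ended in 2 nt on both arms in 15 cases (45.5%, 28.1 to 63.6%) and in 1 to 3 nt in 24 (72.7%, 54.5 to 86.7%). Contig_158801 and contig_158802 enter both classes. The overhangs there were 0 and -2 nt for the member arms, and 2 nt at both ends for the matched arms. The difference in 2-nt ends was -41 percentage points (two-sided Fisher's exact p = 1.7e-05). This comparison was chosen after the values were seen, so the p is a description. The matched arms were listed for their match to miRBase sequences and the candidate arms were not. The part of this selection in the difference was not tested. It includes arms of unequal length, which the counts for 21 nt on both arms leave out. Among hairpins with 21 nt on both arms the counts were 2 of 19 (10.5%) and 12 of 14 (85.7%), and among hairpins with under 100 reads they were 2 of 39 (5.13%) and 4 of 11 (36.4%). Hairpins with 24 nt on both arms had 2-nt ends in 1 of 64 (1.56%) and ends of 1 to 3 nt in 8 of 64 (12.5%).

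**Figure D4:**
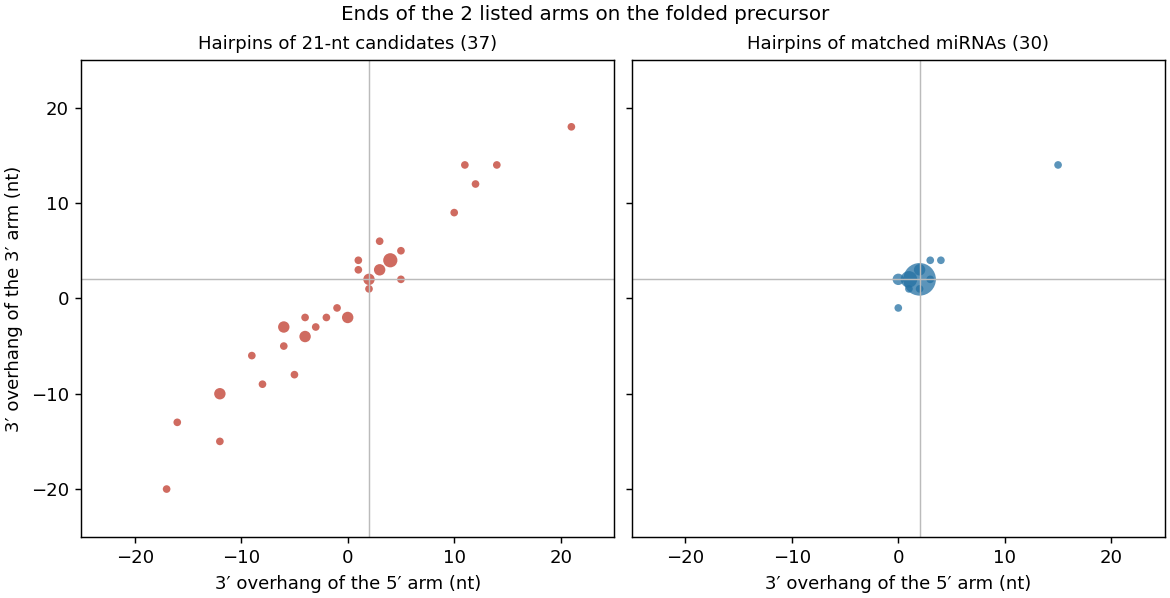
Overhang at the 3′ end of the 5′ arm (horizontal axis, nt) and of the 3′ arm (vertical axis, nt) for hairpins whose listed arms pair, those of 21-nt candidates on the left and those of matched miRNAs on the right; larger dots stand for more hairpins and grey lines mark 2 nt. The matched hairpins gather at 2 nt on both axes, while those of the candidates spread along the diagonal, above and below 0.

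The hairpin with 2-nt ends and both arms identical to the contig was that of contig_113864, minus strand, listed positions 1192 to 1397. PC-5p-25522_24 had 28 reads on its 5′ arm and PC-3p-82844_5 had 13 on its 3′ arm, with 19 pairs between them. The other was contig_187275, minus strand, listed positions 1032 to 1135, where PC-5p-361628_1 had 2 reads with T20C and PC-3p-83894_5 had 9.5 reads with T13C. Placed on the plus-strand hairpin of the same contig, PC-3p-83894_5 also met the abundant PC-5p-407_1164 with 2-nt ends, but with the substitutions G7A and T13C. The hairpin of contig_113864 is shown with its arms in capitals.
PC-5p-25522_24: tAGGAGAGcacatcgaagact
PC-3p-82844_5: tTTTCGGTgtgctctcctatt
contig_113864 minus: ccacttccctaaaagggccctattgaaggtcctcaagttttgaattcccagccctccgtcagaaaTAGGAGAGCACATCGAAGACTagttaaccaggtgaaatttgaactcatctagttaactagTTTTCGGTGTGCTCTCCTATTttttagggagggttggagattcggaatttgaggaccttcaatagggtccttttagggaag

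Among the 10 most-read members with the other arm listed, the ends varied. On contig_325544 the arms overhung by 4 nt at both ends on the minus strand and by -2 nt on the plus strand. On contig_221044, plus strand, the overhangs of PC-5p-264907_2 and PC-3p-14451_46 were -3 nt. PC-5p-26602_23 had overhangs of 1 and 4 nt beside a 24-nt partner on contig_241396 and of -1 nt at both ends beside PC-3p-148627_3 on contig_97956. PC-5p-46600_11 had 3 and 6 nt on contig_183970, and -6 and -5 nt on contig_23668. PC-3p-24721_24 (43 reads) was within the range of 1 to 3 nt, with 1 and 3 nt beside PC-5p-10032_69, a 19-nt sequence with 188 reads on contig_65037. PC-3p-32727_17 had 21 and 18 nt beside PC-5p-21990_28 on contig_289637, with 3 pairs between them.

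In some hairpins the arms named 5p and 3p were not on opposite sides of the stem. On contig_46726, plus strand, positions 495 to 749, PC-5p-3808_166 (581 reads) covered bases 115 to 135 and the 24-nt PC-3p-57416_8 (32 reads) covered bases 119 to 142, so the sequences overlapped by 17 nt. On contig_73413, minus strand, PC-5p-19668_31 (143 reads) covered bases 94 to 114 and PC-3p-74124_6 (24 reads) covered bases 115 to 135, end to end. No base of one arm paired with the other in either hairpin, so a ratio of arms has no meaning as a ratio of duplex strands there. The hairpin of contig_46726 is given because it holds the second most-read member, with the overlapping sequences in capitals.
contig_46726 plus: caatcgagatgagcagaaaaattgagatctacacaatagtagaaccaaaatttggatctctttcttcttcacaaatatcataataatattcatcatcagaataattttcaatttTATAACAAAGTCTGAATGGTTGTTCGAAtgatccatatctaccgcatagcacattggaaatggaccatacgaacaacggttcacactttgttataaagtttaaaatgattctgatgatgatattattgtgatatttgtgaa

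Many members were not identical to the contig they were listed on. An identical hairpin was listed for 40 members, and 32 had 1 mismatch to each of their hairpins, with 24.2% of the member reads (22.9 to 25.5%). Among the 24-nt candidates, 96 of 212 had no identical hairpin. No member had more than 1 mismatch. Of the 38 distinct mismatches, 24 were transitions, and 8 were of the G-to-A kind (contig to listed) and 7 of the C-to-T kind. Of the 32 members, 4 were identical to another hairpin or strand in the table, PC-5p-34521_16 and PC-3p-74124_6 among them. The source of these mismatches was not tested.

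Folding values of the hairpins are given beside those of the 24-nt class. The minimal folding energy index (MFEI) relates the energy of the fold to hairpin length and base composition. Its median was 1.4 over the 68 member hairpins (order-statistic interval 1.3 to 1.5) and 1.3 over the 173 hairpins of 24-nt candidates (1.3 to 1.4). The 19 member hairpins whose other arm is 24 nt count in both classes, so the values of this paragraph are not from separate sets. It ran from 0.9 to 2.3, and from 0.9 to 2.7 in the 24-nt class. Median lengths were 148 nt (69 to 255) and 155 nt (60 to 263), and median GC contents were 40.8 and 34.4%. The longest uninterrupted helix had a median of 21 bp in both classes. It reached at least 30 bp in 24 of the 68 member hairpins and in 41 of the 173 hairpins of the 24-nt class, with a longest of 71 and 83 bp. Hairpins had to pass folding criteria to be listed, per the file headers, so these levels are given with no test.

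The most stable hairpin by the index was that of contig_139721 (2.3), with PC-5p-112011_4 (13 reads) and PC-3p-136506_3 (8 reads), whose arms did not pair with each other. PC-5p-35702_16 followed, with an index of 2.0 on contig_255082 and of 1.3 on contig_238379. At the low end, 5 members shared an index of 0.9 on at least 1 hairpin, namely PC-5p-21027_30, PC-3p-195177_2, PC-3p-86184_5, PC-3p-23929_27 and PC-3p-51926_9. PC-3p-86184_5 had 6 reads on contig_65633, beside the 22-nt PC-5p-68871_6 with 7, and their overhangs were 2 and 1 nt.

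Several of these low-index members lay in or near conserved families. The search for them was added after the values were seen. In all, 6 members with 102.5 reads, 2.39% of the class (1.95 to 2.88%), lay within 2 mismatches of a matched sequence over at least 17 nt, or of its hairpin. PC-5p-21027_30 (38 reads) and PC-3p-195177_2 (5 reads) lay on contig_158801 and contig_158802, the hairpins of miR398, a regulator of copper superoxide dismutase transcripts, where mtr-miR398b had 694.5 reads on each. PC-3p-195177_2 began 4 nt before mtr-miR398b and was identical to it over the 17 nt they share. PC-3p-23929_27 (30 reads) was identical to part of the hairpin of mdm-miR167b on contig_219575, which had 40.5 reads there. miR167 targets auxin response factors.

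PC-3p-109598_4 (10 reads) differed by 1 mismatch over 20 nt from the 3′ strand of miR396, a regulator of growth-regulating factors, which had 49 reads on contig_229199 while mtr-miR396a-5p had 794.5. PC-3p-42983_12 (12 reads) and PC-3p-51926_9 (7.5 reads) differed by 1 and 2 mismatches from miR395, which acts in sulfate assimilation. Of these members, 5 are printed below with the listed miRNA each is nearest to, since the likeness is best seen in the letters, and PC-3p-23929_27, which was matched to a hairpin alone, stands last. No member with at least 100 reads was among them.
PC-5p-21027_30: gGGTCGATctgagatcacatg
cpa-miR398_2ss4AT20CT: gGGTCGACatgagatcacatg
PC-3p-195177_2: cAAATGTGttctcaggtcgcc
mtr-miR398b: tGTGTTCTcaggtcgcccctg
PC-3p-109598_4: gCTCAAGAaagctgtgggact
mtr-miR396a-3p_L-1_1ss20GC: cTCAAGAAagctgtgggaca
PC-3p-42983_12: cTGAAGTGtttgtgggaactt
aly-miR395c-3p_1ss17GA: cTGAAGTGtttgggggaactt
PC-3p-51926_9: cTGAAGCGtttgggggaaccc
mtr-miR395a_1ss1AC: cTGAAGTGtttgggggaactc
PC-3p-23929_27: gATCATGTtggcagcttcacc

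Listed positions on the minus strand need care. Of the 68 member hairpins, 41 were on the minus strand. On 13 contigs both strands carried a listed hairpin, and each such pair was an exact reverse complement over 85 to 199 nt. The listed minus-strand positions matched these sequences in 0 of 13 pairs and were off by 2 to 111 nt. For contig_325544 the minus hairpin lies by sequence at 365 to 468, over the plus-strand hairpin, and not at the listed 310 to 413. The hairpins of opposite strands were counted separately above, although their sequences are reverse complements.

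The degradome listed few targets for these members. In the authors' deposited table, 3 of 72 members (4.17%, 0.868 to 11.7%) had a listed target, against 3 of 212 candidates of 24 nt (1.42%, 0.293 to 4.08%), a difference of 2.75 points that did not pass the test (two-sided Fisher's exact p = 0.17, adjusted p = 0.23). They formed 4 of the 108 listed alignments, on 3 transcripts once contigs of 1 assembly cluster are merged. Of the 10 most-read members, only PC-5p-3828_169 had one. The sites are printed 5′ to 3′ as transcript sequence, with the base at the listed position in capitals.
CL2665.Contig1, site of PC-3p-53866_10: ucgcccagcaaCcuucaaucc
CL3294.Contig1, site of PC-5p-3828_169: aauuuugauagAggcaaagga
Unigene7156, site of PC-5p-111483_4: ggucaucaucCugggaugug

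PC-3p-53866_10 (tTATTGAAggttgctgggtgg, 7 small RNA reads) was listed at position 928 of CL2665.Contig1, with 21 of the 3903 degradome reads on that transcript (0.538%, 0.333 to 0.821%). That position ranked 43 of 350 positions with reads, and the highest, 1577, had 90. Within 10 nt, the listed position included, there were 274 reads at 16 positions, the highest with 36 reads. The same reads were listed on CL2665.Contig2 at position 748, with 21 of 3849 reads, and 0 of them matched 1 contig alone.

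PC-5p-3828_169 was listed at position 2236 of CL3294.Contig1, with 3 of 1333 reads (0.225%, 0.0464 to 0.656%). It ranked 134 of 180, the highest position had 25 reads, and the window of 10 nt on each side held no other read. PC-5p-111483_4 (27 small RNA reads) was listed at position 1622 of Unigene7156, with 4 of 3005 reads (0.133%, 0.0363 to 0.34%). It ranked 241 of 372, the highest position had 45 reads, and 35 reads lay within 10 nt, the listed position included. In the authors' deposited table these were category 2 for PC-3p-53866_10 and category 3 for the other members, with p-values of 0.237, 0.254 and 0.161 and a score of 4 each. No listed position of a member was the highest on its transcript, as the plot of degradome reads around the sites shows. A cut at these positions could not be told from other 5′ ends with these reads.

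**Figure D5:**
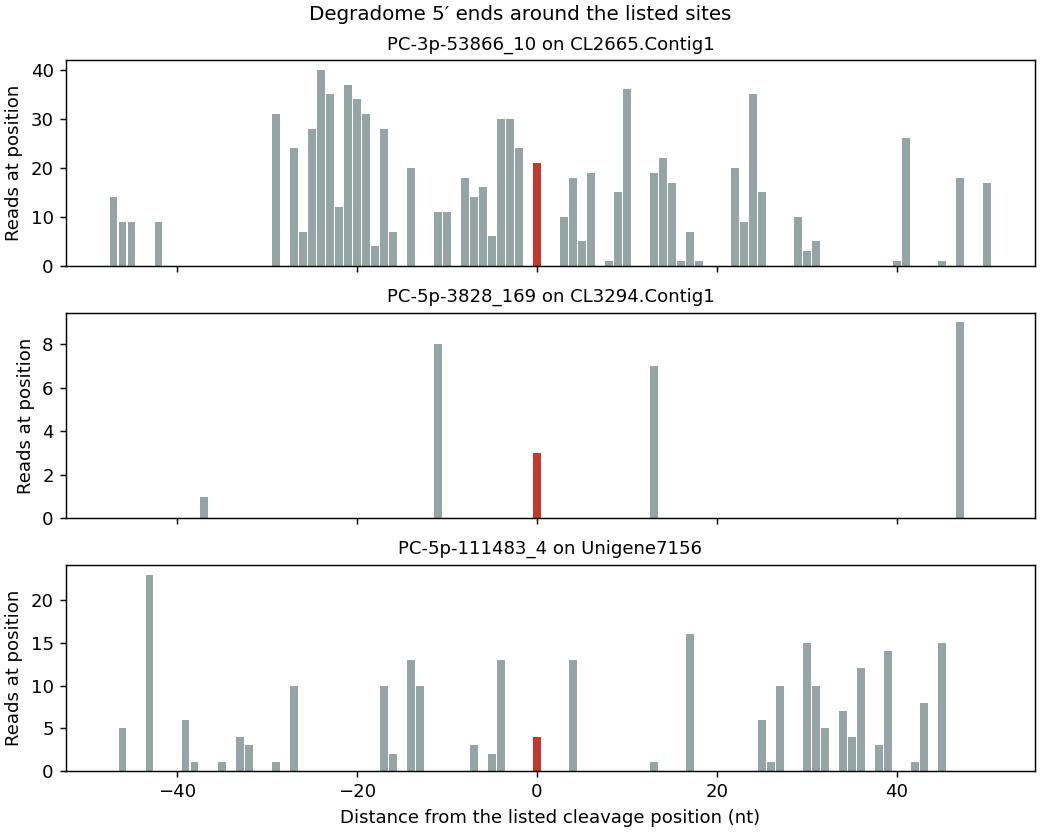
Degradome reads by position (vertical axis, reads whose 5′ end lies there) against distance from the listed position (horizontal axis, nt) for PC-3p-53866_10, PC-5p-3828_169 and PC-5p-111483_4, with the listed position in red. The listed positions hold 21, 3 and 4 reads, and higher positions stand within the plotted window of each.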

How the data were processed

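The small RNA table was deposited by the authors with raw reads per entry, per the file headers, and these are estimated counts because some are not whole. Its hairpins, folds and folding indices are the authors' values, per the file headers. A listed sequence is the best-scoring read of its cluster, per the file headers, so its ends stand for 1 read species. The degradome table was deposited by the authors with reads per transcript position and, per alignment, a score, a category and a p-value. Its columns have no header. For the category definitions, the aligner and the build, nothing is given in the sources used here. Library totals were not used. RNA was extracted with Trizol and the small RNA library was made with a TruSeq kit, per the labels' protocols.

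Reads were summed over the entries of a sequence and rounded only for intervals. Arms were placed where they had the fewest mismatches to the deposited hairpin sequence, with no limit set. Members had at most 1 mismatch. Overhangs came from the deposited fold. Related sequences share at least 15 nt on either strand. Shares have exact binomial intervals, and 4 two-sided Fisher's exact tests were adjusted by Benjamini-Hochberg. Fisher's exact test, the overhang count and the grouping were run on simulated data. The simulated counts were independent, so that run does not cover related sequences or shared hairpins. Named members are the 10 with the most reads, those with a listed target, the 10 most-read with the other arm listed, the 5 most-read related groups, and the 3 highest and lowest folding indices, with ties kept. The members and lists were chosen with earlier results of these data known. Alternatives covered a minimum of 10 reads, merging of related sequences, refolding with RNAfold 2.7.2, a stretch of 18 nt, the same strand only and stricter degradome criteria. SciPy 1.17.1, pandas 2.3.3, Biopython 1.88, matplotlib 3.10.9 and NumPy 2.4.6 were run under Python 3.11.15.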

Additional observations from a re-analysis of the deposited data

How the results depend on the processing

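The excess of U over the 24-nt class stayed past the threshold with a minimum of 10 reads (31.4 points) and with related sequences merged (28.2). The difference in listed other arms reversed with a minimum of 10 reads, to 9.18 points (Fisher's exact p = 0.36), having been -0.445. The share of member reads with U first moved from 60.5% to 44% without PC-5p-407_1164, to 55.9% with whole read numbers only, and to 44.4% with each member counted once. The members whose arms both overhang by 2 nt numbered 4, and 8 with 1 to 3 nt allowed; refolding with RNAfold also gave 4. Groups of related members fell from 7 to 4 with a stretch of 18 nt, and to 6 with the same strand only. Of the 4 listed target pairs, none (0) was of category 0 or 1 and none (0) had a p-value up to 0.05 in the table the authors deposited. The difference in 2-nt ends from the matched hairpins ran from -75.2 to -31.2 points over 5 alternatives added after seeing the data, with Fisher's exact p at most 0.017. The remaining alternatives of the tests kept direction and side of the threshold. The median MFEI stayed at 1.4, or was 1.38 with energies from RNAfold. The cause of each change was not tested beyond what the alternative leaves out. With 28 members under 10 reads, arm ratios of such members rest on few reads. The listed positions held at most 21 degradome reads. The part of depth in either was not tested. No paired analysis was possible because each kind of library is a single sample.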
